A study of Mus musculus with 4 samples.

Results

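Transcripts of 8 enzymes that break down the sulfur amino acids methionine and cysteine were examined in lung tumours driven by oncogenic K-Ras, with and without a labelled loss of Mll4. The genes were Suox, Ethe1, Tst, Mpst, Cdo1, Csad, Cbs and Cth, taken by symbol, 8 of the 24391 genes in the count files. Suox was selected on its expression difference between these same samples in an earlier reading of the data, and the other 7 were added as steps of the same pathway. The differences between the groups are therefore a description for the 8 genes. Calls are stated only to show how Suox was singled out, and they give no support.

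The study held 4 samples of mouse lung tumour, 2 labelled K-Ras and 2 labelled K-Ras Mll4-/-. The K-Ras tumours carried the K-Ras LSL-G12D allele, a mutant allele that is silent until Cre recombinase removes a stop cassette, and the K-Ras Mll4-/- tumours carried that allele together with floxed Mll4 (Mll4 fl/fl). Both groups thus shared the mutant K-Ras allele. Mll4, now Kmt2d, is a histone methyltransferase that acts mainly at enhancers. All 4 samples had been digested to single cells and depleted of cells bearing CD45, the leukocyte antigen. The Cre driver, the age and strain of the mice, and whether each sample came from 1 animal are not given in the sources used here, so the spread between samples may be partly technical.

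Gene-assigned reads numbered between 26683033 and 36677987 per sample. Kmt2d, the targeted gene, was at 395 and 526 CPM (read counts scaled to library size after TMM normalisation) in the K-Ras samples and at 367 and 317 CPM in the K-Ras Mll4-/- samples, a log2 fold change of -0.43 that edgeR did not call (adjusted p = 0.302) and that was -0.11 with GC and length offsets and -0.22 without K-Ras replicate 2. Counts per gene do not resolve the deleted exons, so the deletion is taken from the labels. Markers of alveolar type 2 cells were abundant in all 4 samples, with a summed level between 18339 and 30169 CPM over 8 of 8 genes. K-Ras replicate 2 stood apart in airway markers: the 6 ciliated cell markers summed to 768 CPM there, against 136 CPM in K-Ras replicate 1 and 77.2 and 80.1 CPM in the K-Ras Mll4-/- samples. The 5 club cell markers summed to 3757 CPM there, against 657 to 829 CPM elsewhere. K-Ras replicate 1 had the highest summed level of the 6 fibroblast markers, 1587 CPM, against 552 to 736 CPM elsewhere. Ptprc, the gene of CD45, was still read at 143 to 274 CPM.

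Methionine sulfur reaches cysteine through transsulfuration, in which cystathionine beta-synthase (Cbs) joins homocysteine to serine and cystathionine gamma-lyase (Cth) splits the product to give cysteine. Cysteine is then oxidised by cysteine dioxygenase (Cdo1) towards taurine, through the decarboxylase Csad, or it passes its sulfur to persulfides and sulfide, which Mpst, Tst and the mitochondrial dioxygenase Ethe1 handle. These branches can release sulfite, which is toxic and which sulfite oxidase (Suox), an enzyme of the mitochondrial intermembrane space that holds a molybdenum cofactor and a haem, turns into sulfate while passing electrons to cytochrome c. Loss of sulfite oxidase or of its cofactor causes severe neurological disease in infants, and loss of ETHE1 causes ethylmalonic encephalopathy. Liver and kidney are the organs best known for these reactions.

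The promoter of Suox is shown because this gene had the largest difference of the 8. That of Ethe1 is shown because this gene encodes the sulfite-producing step directly before Suox. That of Cbs is shown because its samples separated in the other direction. Cdo1 separated in that direction too, but its promoter was left out of the search. Sequences are from RefSeq (GRCm38.p6), as the bases before the annotated start, 5′ to 3′ on the strand of the gene. Windows were taken for 5 of the 8 genes. Tst and Cth were not matched, and Cdo1 was not searched for. The Suox window is chr10:128673919-128674168 on the minus strand, the Ethe1 window, the second of 2 annotated starts, is chr7:24593658-24593907 on the plus strand, and the Cbs window is chr17:31637206-31637455 on the minus strand. Capitals mark matches to the GC box, whose letters were searched as GGGCGG. They also mark the CCAAT box, searched by the letters in its name, and the E-box, for which the searched letters were CACGTG. Each motif was searched on both strands, so that a match on the other strand appears as the reverse complement.

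Suox: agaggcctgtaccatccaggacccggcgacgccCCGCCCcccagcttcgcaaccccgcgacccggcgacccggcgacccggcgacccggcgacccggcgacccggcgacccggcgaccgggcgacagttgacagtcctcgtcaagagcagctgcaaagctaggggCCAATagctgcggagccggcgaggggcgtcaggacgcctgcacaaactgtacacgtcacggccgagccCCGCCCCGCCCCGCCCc
Ethe1: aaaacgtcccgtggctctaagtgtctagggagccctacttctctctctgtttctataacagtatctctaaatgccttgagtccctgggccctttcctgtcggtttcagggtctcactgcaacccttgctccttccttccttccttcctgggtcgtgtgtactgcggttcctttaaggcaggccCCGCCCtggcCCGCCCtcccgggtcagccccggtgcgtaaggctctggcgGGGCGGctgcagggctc
Cbs: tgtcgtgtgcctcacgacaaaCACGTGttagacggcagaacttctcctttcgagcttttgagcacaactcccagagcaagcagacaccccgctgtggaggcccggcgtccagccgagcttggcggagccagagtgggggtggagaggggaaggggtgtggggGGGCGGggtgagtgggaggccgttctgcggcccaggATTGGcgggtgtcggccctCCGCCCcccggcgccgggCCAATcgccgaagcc

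The Suox window held 4 GC boxes and 1 CCAAT box, and 3 of the GC boxes overlapped each other in a run that starts 17 bases before the gene's start. Its G+C content was 74.4%, against a median of 52.4% over the 32851 RefSeq promoter windows of the same length, and its 35 CpG dinucleotides were more than in 97.0% of them. It also carried 8 copies of GACCCGGC, most of them in tandem, and it was the 1 window of the table with that many. The Ethe1 window held 3 GC boxes, while that of its other annotated start, not printed, held a GC box and a CCAAT box. The Cbs window held 2 GC boxes, 2 CCAAT boxes and 1 E-box. A GC box was present in 32.7% of all windows, a CCAAT box in 33.8% and an E-box in 6.02%. The letters searched for a cAMP response element (TGACGTCA), an antioxidant response element core (TGACNNNGC), an ATF4 composite site core (TTGCATCA), an ETS core (CCGGAAG) and a TATA box (TATAAA) were in none of these 3 windows, and they were in 1.55%, 10.2%, 0.791%, 6.91% and 12.4% of all windows.

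Sulfite oxidase stood at 14.6 and 14.5 CPM in the K-Ras samples and at 75.6 and 83.4 CPM in the K-Ras Mll4-/- samples. These levels rested on 446 and 524 reads against 1984 and 2689 reads. The groups lay far apart, and the K-Ras samples were nearly equal. Group means were 14.5 ± 0.0602 and 79.5 ± 5.57 CPM (SD, n = 2 each), a 5.47-fold higher level, or 2.45 on the log2 scale (SE 0.13). The gap between the replicates was 0.01 on the log2 scale in K-Ras and 0.14 in K-Ras Mll4-/- tumours. Counting error alone gave exact 95% Poisson intervals of 13.3 to 16.0 and 13.3 to 15.8 CPM in the K-Ras samples. These intervals are far wider than the gap between the K-Ras samples, so their small SD is not a measure of the spread. By edgeR's quasi-likelihood test across all 16001 genes that passed the count filter, Suox was 1 of the 6 called genes, all higher in K-Ras Mll4-/- tumours, which is 0.0375% of those tested, and it had the 6th smallest p-value. Its call was kept in 11 of 16 alternatives and lost in 5: upper quartile scaling, limma-voom, and leaving out K-Ras replicate 2, K-Ras Mll4-/- replicate 1 or K-Ras Mll4-/- replicate 2. That call is what singled the gene out, so the call, its rank and its hold over the alternatives are description and give no support. Suox was the 1 member called, and nothing is read from this count.

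For a single gene, the smallest p that an exact two-sided permutation of these 4 samples allows is 0.333. All 8 genes passed the count filter. Of the 8, Suox and Ethe1 were higher in both K-Ras Mll4-/- samples than in both K-Ras samples, Cdo1 and Cbs were lower in both, and Tst, Mpst, Csad and Cth overlapped. Among all genes tested, 29.9% were higher in both K-Ras Mll4-/- samples and 28.5% lower in both. The median log2 fold change of the 8 was -0.15, against -0.01 over all genes tested.

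**Figure D1:**
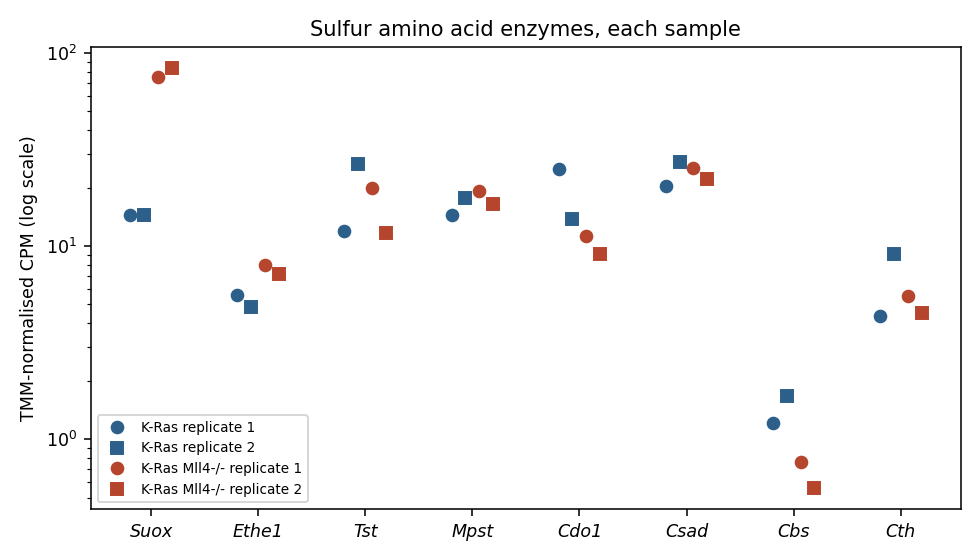
Level of each of the 8 transcripts in each sample, as CPM on a log axis; blue points are K-Ras and red points K-Ras Mll4-/- samples, with circles for replicate 1 and squares for replicate 2. The red Suox points, at 75.6 and 83.4 CPM, lie well above the blue ones at 14.6 and 14.5 CPM, while the other 7 genes differ less between groups.

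Ethe1, the persulfide dioxygenase whose product is sulfite, was the other gene without overlap in the same direction as Suox, at a lower level. It was at 5.59 and 4.87 CPM in K-Ras and at 8.04 and 7.23 CPM in K-Ras Mll4-/- samples. Both K-Ras Mll4-/- samples were higher, by 1.46-fold on the fitted scale (log2 fold change 0.54, SE 0.24). Counting error alone gave an exact 95% Poisson interval of 4.79 to 6.50 CPM in K-Ras replicate 1. It met that of K-Ras Mll4-/- replicate 2, 6.33 to 8.22 CPM. In GENCODE M21 the gene overlaps Zfp575 on the other strand by 99 bases, and whether the counting used strand is not given in the sources used here.

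Tst and Mpst encode the sulfurtransferases rhodanese and 3-mercaptopyruvate sulfurtransferase, and they are direct neighbours on chromosome 15, with 0 protein-coding genes between their starts. Tst was at 12.0 and 26.8 CPM in K-Ras and at 20.1 and 11.7 CPM in K-Ras Mll4-/- samples. Its replicates differed more than its groups, by 1.16 on the log2 scale in K-Ras and 0.78 in K-Ras Mll4-/- tumours, against a log2 fold change of -0.29 (SE 0.49). Mpst was steadier, at 14.6 and 17.8 CPM in K-Ras and 19.4 and 16.6 CPM in K-Ras Mll4-/- samples, with a log2 fold change of 0.16 (SE 0.19). The levels of both genes overlapped between the groups. Without K-Ras replicate 2, the sample rich in airway markers, the log2 fold change of Tst turned to 0.39, and without K-Ras Mll4-/- replicate 2 it was 0.04. The part of other cell types in these values was not tested.

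Cdo1, which commits cysteine to oxidation, was lower in K-Ras Mll4-/- tumours. It was at 25.2 and 13.8 CPM in K-Ras and at 11.3 and 9.09 CPM in K-Ras Mll4-/- samples. The groups did not overlap, but K-Ras replicate 1 was far above the other 3 samples. On the log2 scale the difference was -0.94 (SE 0.35), becoming -0.43 without K-Ras replicate 1 and -1.32 without K-Ras replicate 2. The same replicate had the highest summed level of the 6 fibroblast markers. In that list 4 of 6 genes were lower in both K-Ras Mll4-/- samples, against 28.5% of all genes tested. The sums were 736 to 1587 CPM in K-Ras and 552 to 572 CPM in K-Ras Mll4-/- samples, and no marker was at 0. Adipocyte markers, another cell type in which Cdo1 is known to be expressed, summed to only 2.57 to 12.5 CPM in K-Ras and 8.69 to 8.95 CPM in K-Ras Mll4-/- samples over 6 of 6 genes, highest in K-Ras replicate 1 as well, and Lep and Adipoq were at 0 in some samples. The part of these cells in the Cdo1 difference was not tested, and in bulk samples fewer cells of a type and less RNA per cell cannot be told apart.

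Csad, the decarboxylase that leads to hypotaurine, showed the smallest difference of the 8. It was at 20.5 and 27.5 CPM in K-Ras and at 25.4 and 22.4 CPM in K-Ras Mll4-/- samples, with both K-Ras Mll4-/- samples between the K-Ras samples. The log2 fold change was -0.01 (SE 0.20) and its sign turned under several alternatives, so no direction is given. Csad overlaps Zfp740 on the other strand by 1476 bases in GENCODE M21.

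The first transsulfuration enzyme, Cbs, was the least abundant of the 8 transcripts in every sample. It was at 1.21 and 1.69 CPM in K-Ras and at 0.762 and 0.558 CPM in K-Ras Mll4-/- samples, from 37, 61, 20 and 18 reads. The groups did not overlap, with a log2 fold change of -1.14 (SE 0.44). Counting error alone gave exact 95% Poisson intervals of 0.852 to 1.67 and 1.29 to 2.17 CPM in K-Ras, and of 0.465 to 1.18 and 0.331 to 0.883 CPM in K-Ras Mll4-/- samples, so the intervals of K-Ras replicate 1 met those of both K-Ras Mll4-/- samples. Cth, the next step, was at 4.35 and 9.16 CPM in K-Ras and at 5.56 and 4.50 CPM in K-Ras Mll4-/- samples. K-Ras replicate 2 alone was high and the groups overlapped. Its log2 fold change of -0.43 (SE 0.43) turned to 0.19 without that sample. In GENCODE M21 Cth overlaps Gm43314 on the same strand by 2231 bases, and Gm43314 is not among the counted genes. K-Ras replicate 2 was the highest of the 4 samples for Tst, Csad, Cbs and Cth, 4 of the 8 genes. In that sample all 6 ciliated markers were also highest, and their part was not tested.

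**Figure D2:**
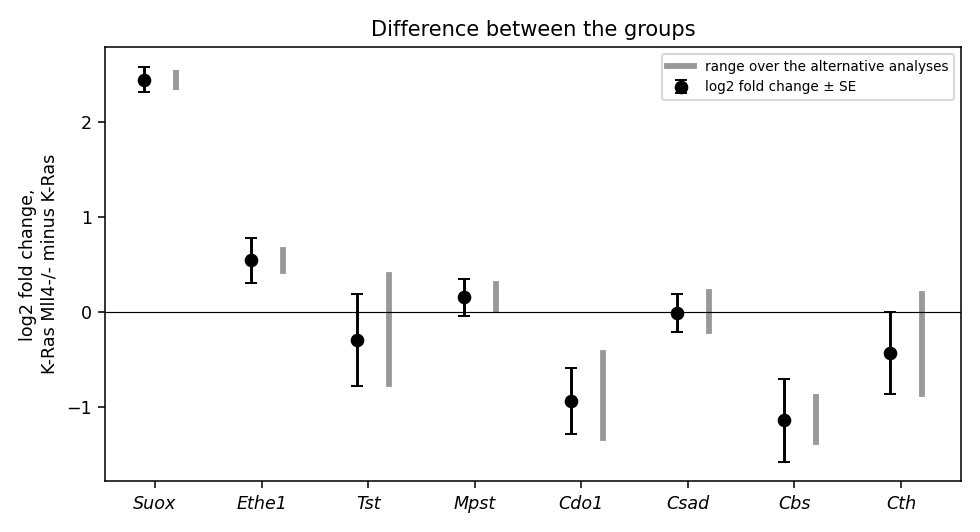
Log2 fold change of each gene (K-Ras Mll4-/- minus K-Ras, black points with SE from the fit to all 4 samples) and, as a grey bar, its lowest and highest value over the alternative analyses (16 for each gene, 15 for Cbs). The Suox bar spans 2.37 to 2.53, while the bars of Tst, Csad and Cth cross 0.

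Levels of different genes were compared as CPM per kilobase of the longest protein-coding GENCODE M21 transcript. On this scale the order in K-Ras tumours was Tst (17.0 ± 9.18), Cdo1 (12.2 ± 5.08), Csad (10.5 ± 2.17), Mpst (9.22 ± 1.30), Suox (5.82 ± 0.0241), Cth (3.72 ± 1.87), Ethe1 (3.53 ± 0.344) and Cbs (0.233 ± 0.0543; SD, n = 2 each). Each of Tst, Cdo1, Csad and Mpst lay within the spread of the next of these 4, and Cth and Ethe1 lay within the spread of each other, while Suox lay apart from Mpst and Cbs apart from Ethe1. In K-Ras Mll4-/- tumours Suox came first at 31.8 ± 2.23, followed by Tst (13.9 ± 5.18), Csad (10.5 ± 0.919), Mpst (10.3 ± 1.14), Cdo1 (6.40 ± 0.984), Ethe1 (5.14 ± 0.384), Cth (2.77 ± 0.414) and Cbs (0.106 ± 0.0231). There Tst, Csad and Mpst did not differ among themselves beyond their spread. Suox ranked 5th of the 8 in both K-Ras samples and 1st in both K-Ras Mll4-/- samples. Cbs was last in all 4, also per kilobase of its second longest coding transcript of 2533 bases, where it was between 0.220 and 0.666.

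Ratios within a sample do not depend on the scaling between samples. Suox made up 10.5% and 8.46% of the summed CPM per kilobase of the 8 genes in the K-Ras samples and 35.3% and 43.9% in the K-Ras Mll4-/- samples. The 2 ranges did not overlap. Per kilobase, Suox stood at 1.55 and 1.77 times the level of Ethe1 in K-Ras and at 5.59 and 6.86 times in K-Ras Mll4-/- samples. Both the share and this ratio restate the Suox difference for which the gene was selected, and nothing further is read from them. Cdo1 took 28.4% and 12.6% of the sum in K-Ras and 8.27% and 7.49% in K-Ras Mll4-/- samples.

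**Figure D3:**
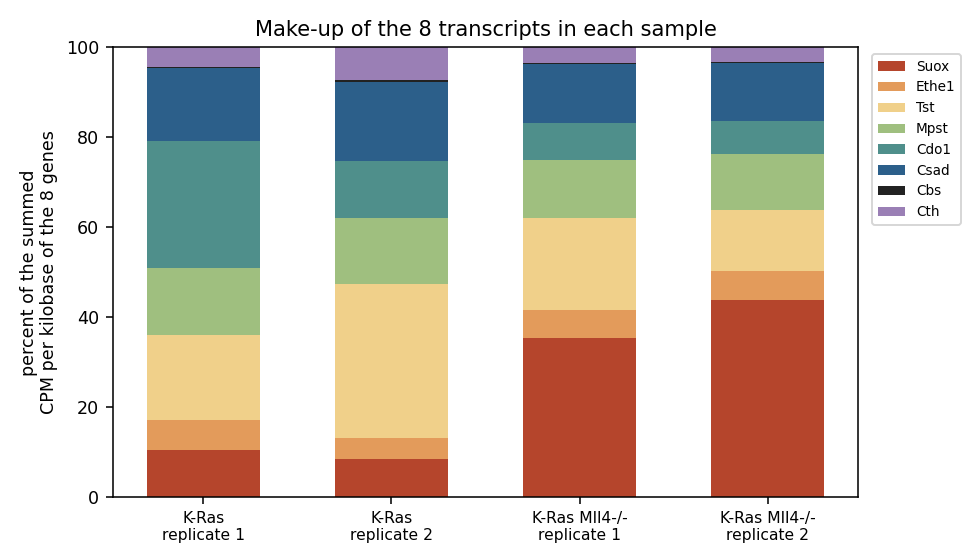
Share of each gene in the summed CPM per kilobase of the 8 genes, 1 stacked bar per sample, in percent. The Suox segment at the bottom is 10.5% and 8.46% in the K-Ras samples and 35.3% and 43.9% in the K-Ras Mll4-/- samples.

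Around these enzymes, 6 lists with 71 genes covered the cofactor of sulfite oxidase, the other steps of sulfide, cysteine and methionine metabolism, the use of sulfate, and glutathione synthesis. Of the 71 genes, 60 passed the count filter. By edgeR's quasi-likelihood test none was called in either direction, limma-voom called 0, and DESeq2 called 12, of which 8 were higher and 4 lower, where DESeq2 called 10.0% of all genes tested. The edgeR likelihood ratio test called 8, against 1503 of all 16001 genes tested. These were Xdh, Cycs, Txn2, Fmo1, Ahcy, Ahcyl2, Slc26a2 and Sult1a1. At an unadjusted edgeR p under 0.05 there were 16 of 60, against 21.8% of all genes. The median log2 fold change of the 60 was 0.08, with values from -1.68 to 1.65. All lay below the Suox value of 2.45, but Suox was selected for its difference, so nothing is read from this.

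Genes that make or share the molybdenum cofactor were mixed in sign. Mocs1, which starts cofactor synthesis, was at 52.5 and 73.7 CPM in K-Ras and 58.6 and 55.9 CPM in K-Ras Mll4-/- samples. Mocs2, the next enzyme, was at 23.6 and 16.5 CPM against 21.1 and 17.9 CPM, and Gphn, gephyrin, which inserts molybdenum, was at 40.1 and 48.3 CPM against 45.1 and 40.6 CPM. The groups overlapped for each of these 3 genes, whose log2 fold changes were -0.14, -0.04 and -0.05 (SE 0.20, 0.24 and 0.15) and changed sign when single samples were left out. In this list of 11 genes, 9 were tested, 3 had a positive and 6 a negative log2 fold change, and the median was -0.05. Xdh, xanthine dehydrogenase, another enzyme with a molybdenum cofactor, was at 710 and 946 CPM in K-Ras and at 501 and 445 CPM in K-Ras Mll4-/- samples. Its log2 difference was -0.81 (SE 0.22). DESeq2 and the edgeR likelihood ratio test called it, but edgeR's quasi-likelihood test did not (adjusted p = 0.177). Aox1, an aldehyde oxidase, differed by 0.64 (log2, SE 0.31, edgeR adjusted p = 0.302), and Mocos, which adds sulfur to the cofactor of those enzymes but not of sulfite oxidase, by -0.24 (SE 0.20, edgeR adjusted p = 0.523).

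The electron acceptor of sulfite oxidase was higher in both K-Ras Mll4-/- samples. Cycs, somatic cytochrome c, was at 31.7 and 23.6 CPM in K-Ras and at 64.1 and 56.1 CPM in K-Ras Mll4-/- samples (log2 fold change 1.12, SE 0.19; edgeR adjusted p = 0.147). DESeq2 and the edgeR likelihood ratio test called it. So did edgeR's quasi-likelihood test with the replicate block (adjusted p = 0.0488), but not with the block and GC and length offsets. Sqor, listed in the files as Sqrdl, the quinone oxidoreductase that starts mitochondrial sulfide oxidation ahead of Ethe1, differed less, at 36.4 and 44.9 CPM against 47.8 and 48.8 CPM (log2 fold change 0.25, SE 0.15, edgeR adjusted p = 0.395). Its groups did not overlap, but the distance between K-Ras replicate 2 and the K-Ras Mll4-/- samples was smaller than that between the K-Ras replicates. Of the 12 sulfide and persulfide genes, all tested, 8 had a positive and 4 a negative log2 fold change, with a median of 0.23. Txn2, mitochondrial thioredoxin, differed by 0.71 (log2; edgeR adjusted p = 0.164, called by DESeq2) and Tstd1, a rhodanese-domain gene at 0.434 to 1.30 CPM, by -0.99 (edgeR adjusted p = 0.2998).

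On the taurine branch, 7 of 9 genes were tested, with a median log2 fold change of -0.10. Fmo1, a flavin monooxygenase that can oxidise hypotaurine to taurine, was at 141 and 140 CPM in K-Ras and at 79.98 and 75.8 CPM in K-Ras Mll4-/- samples. Its replicates were close and the groups far apart, with a log2 fold change of -0.85 (SE 0.12). The quasi-likelihood test of edgeR did not call it (adjusted p = 0.135), while DESeq2 and the edgeR likelihood ratio test did. Slc6a6, the taurine transporter, was at 832 and 529 CPM in K-Ras and 583 and 425 CPM in K-Ras Mll4-/- samples, which overlapped. Got2, the mitochondrial aspartate aminotransferase that can also act on cysteine sulfinate, differed by 0.37 (log2, SE 0.13; edgeR adjusted p = 0.214).

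In the methionine cycle, 10 of 12 genes were tested, 5 with a positive and 5 with a negative log2 fold change. Ahcy, which frees homocysteine and so supplies Cbs, was at 9.19 and 12.1 CPM in K-Ras and at 25.6 and 29.4 CPM in K-Ras Mll4-/- samples (log2 fold change 1.37, SE 0.21; edgeR adjusted p = 0.138), and DESeq2 called it. Ahcyl2, a related protein, differed by 1.35 (log2, SE 0.34; edgeR adjusted p = 0.170), and DESeq2 called it. Mat1a, a methionine adenosyltransferase best known from liver, was at 14.1 and 18.0 CPM in K-Ras against 9.90 and 11.0 CPM (log2 fold change -0.63, edgeR adjusted p = 0.204). Bhmt had 0 reads in all 4 samples, below the 3 reads taken as the floor, which are 0.0830 to 0.114 CPM and cover counting error only.

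Sulfate, the product of sulfite oxidase, is carried by transporters and activated for transfer to other molecules. Slc26a2, a sulfate transporter of the plasma membrane, was at 49.5 and 61.5 CPM in K-Ras and at 178 and 170 CPM in K-Ras Mll4-/- samples. The groups were far apart relative to the replicates, and the log2 fold change of 1.65 (SE 0.16) was the highest among the 60 genes. edgeR's quasi-likelihood test did not call it (adjusted p = 0.116). DESeq2 and the edgeR likelihood ratio test did, as did the quasi-likelihood test with no count filter, with the replicate block (adjusted p = 0.0289), with the block and GC and length offsets, and without K-Ras replicate 1. Sult1a1, a phenol sulfotransferase, was at 40.4 and 69.6 CPM in K-Ras and at 20.1 and 14.1 CPM in K-Ras Mll4-/- samples (log2 fold change -1.68, SE 0.34; edgeR adjusted p = 0.154), and DESeq2 called it. Sult1d1, another sulfotransferase, was at 0.279 to 1.27 CPM, differing by -1.495 (log2; edgeR adjusted p = 0.226). Both sulfotransferase genes were highest in K-Ras replicate 2, where the ciliated and club cell markers were highest too, and the part of those cells was not tested. Of the 17 genes on sulfate use, 13 were tested, 7 with a positive and 6 with a negative log2 fold change.

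For glutathione, the other large use of cysteine, 9 of 10 genes were tested and the median log2 fold change was 0.58, with 5 positive and 4 negative values. Slc7a11, the cystine importer, was at 63.6 and 19.2 CPM in K-Ras and at 79.8 and 114 CPM in K-Ras Mll4-/- samples, a log2 difference of 1.23 (SE 0.60; edgeR adjusted p = 0.307) that was 2.34 without K-Ras replicate 1 and 0.60 without K-Ras replicate 2. Chac2, which degrades glutathione, was at 3.99 and 3.43 CPM against 6.93 and 8.25 CPM (log2 fold change 1.03, SE 0.26, edgeR adjusted p = 0.168), and DESeq2 called it. Ggt1, a glutathione hydrolase, rested on 1 sample: it was at 10.2 CPM in K-Ras Mll4-/- replicate 1 and at 1.21 to 2.71 CPM in the others, and its log2 fold change of 1.55 turned to -0.49 without that sample.

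**Figure D4:**
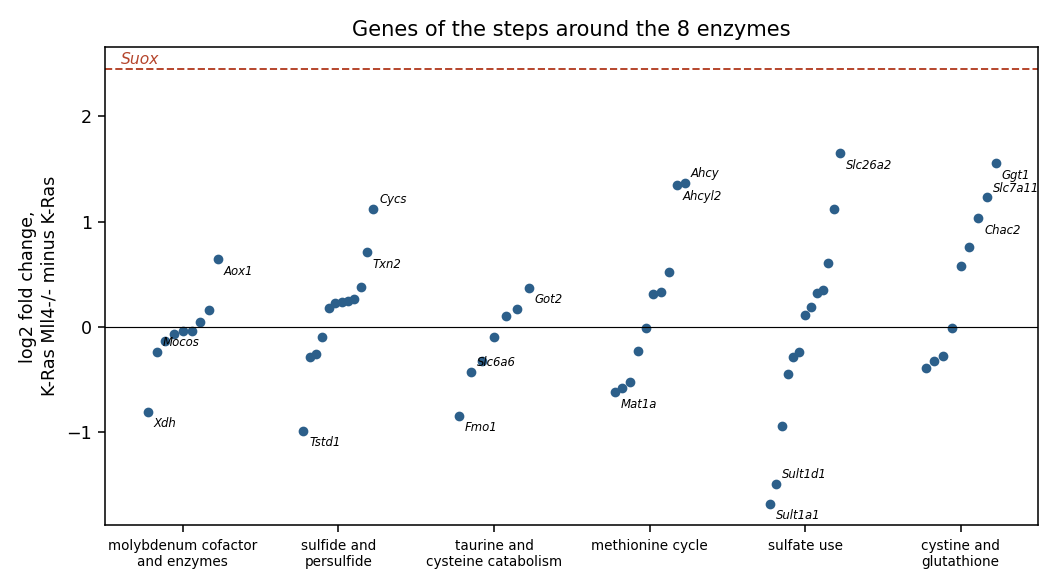
Log2 fold change (K-Ras Mll4-/- minus K-Ras) of the 60 tested genes in the 6 lists, 1 point per gene, with the 3 of largest absolute value named in each list and Suox as a dashed line at 2.45. The points run from -1.68 for Sult1a1 to 1.65 for Slc26a2, below the line.

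The genes beside Suox on chromosome 10 were read in the same way, taking 5 protein-coding genes on each side by the order of their starts in RefSeq (GRCm38). All 10 were tested and none was called by edgeR's quasi-likelihood test, with adjusted p values from 0.147 to 0.790, and 4 of the 10 had an unadjusted p under 0.05, against 21.8% of all genes tested. The direct neighbours differed in sign. Ikzf4, a zinc finger transcription factor, was at 4.06 and 1.85 CPM in K-Ras and at 1.37 and 1.55 CPM in K-Ras Mll4-/- samples, a log2 fold change of -1.01 (SE 0.49) that was -0.34 without K-Ras replicate 1. Rab5b, an endosomal GTPase, was at 118 and 113 CPM against 143 and 130 CPM, a log2 fold change of 0.24 (SE 0.13). The highest value among the 10 was that of Rps26, a ribosomal protein gene next to Ikzf4, at 1.13 (SE 0.20), followed by Erbb3, a receptor of the EGFR family, at 0.79 (SE 0.31). This order turned without K-Ras replicate 2, where Erbb3 was at 1.26 and Rps26 at 0.92, and Erbb3 was at 0.43 without K-Ras replicate 1. Of the 10 genes, 5 were higher and 3 lower in both K-Ras Mll4-/- samples, and 2 overlapped, against 29.9% higher and 28.5% lower among all genes tested. Ribosomal protein genes have many near-identical copies, so the counts of Rps26 and Rpl41 are uncertain.

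**Figure D5:**
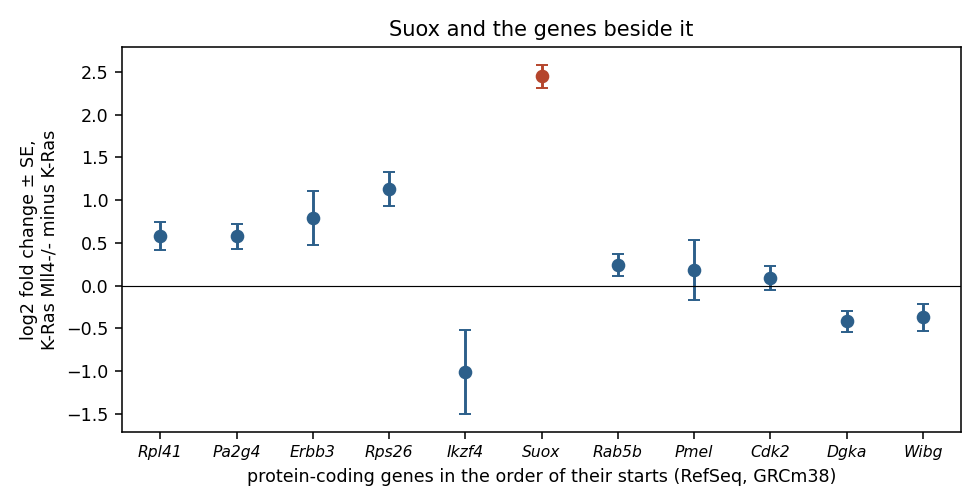
Log2 fold change with SE (K-Ras Mll4-/- minus K-Ras) of Suox, in red, and of the 5 protein-coding genes on each side of it, in chromosomal order. The neighbours lie between -1.01 and 1.13 and Suox at 2.45.

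The genes whose profile over the 4 samples was closest to that of Suox were Msx3, Nrk, Col18a1, Esco2 and Pgap1, by the root mean square difference of log2 CPM after each gene's own mean was removed, which was 0.06, 0.06, 0.12, 0.13 and 0.14. Likeness over 4 samples is mostly a like difference between the groups with close replicates. Col18a1, a collagen of basement membranes, was at 174 and 157 CPM in K-Ras and 883 and 1143 CPM in K-Ras Mll4-/- samples. Nrk, a kinase gene, was at 2.94 and 2.68 CPM against 15.8 and 15.9 CPM, and Esco2, a cohesin acetyltransferase of dividing cells, at a mean of 2.66 ± 0.165 against 12.4 ± 0.795 CPM (SD, n = 2 each). Msx3, a homeobox gene, stayed at or below 1.03 CPM, and Pgap1, which remodels GPI anchors, was at 38.6 ± 3.51 against 204 ± 48.6 CPM (SD, n = 2 each). None of the 7 other members was among these 5 genes.

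Among the cell type markers, the mesothelial list was higher in K-Ras Mll4-/- tumours along with Suox, with summed levels of 21.8 and 22.7 CPM in K-Ras and 124 and 224 CPM in K-Ras Mll4-/- samples. This came from Msln, at 13.8 and 17.0 CPM against 120 and 221 CPM, which tumour cells are also known to express. Of the other 5 mesothelial genes, Upk3b, Wt1 and Lrrn4 stayed at or below 0.654 CPM, Calb2 was at 0 in some samples, and Upk1b, at 6.93 and 4.32 CPM against 2.74 and 2.20 CPM, was lower in both K-Ras Mll4-/- samples. The endothelial list summed to 3849 and 4047 CPM in K-Ras and 2903 and 2270 CPM in K-Ras Mll4-/- samples, with 4 of 6 genes lower in both, against 28.5% of all genes tested, and none at 0. All 6 ciliated markers were lower in both K-Ras Mll4-/- samples, against 28.5% of all genes tested, and none was at 0. Their median log2 fold change was -2.33, with sums of 136 and 768 CPM in K-Ras replicates 1 and 2. Edger's quasi-likelihood test called none, while DESeq2, which called 10.0% of all genes tested, called each but Foxj1. The alveolar type 2 sums, 18339 and 30169 CPM in K-Ras and 24710 and 26071 CPM in K-Ras Mll4-/- samples, overlapped. The part of cell content in the Suox difference was not tested.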

How the data were processed

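RNA sequencing of 4 mouse lung tumour samples was used. The authors deposited raw counts of reads for each symbol, in the layout HTSeq writes; CASAVA 1.4, STAR, HTSeq and the build mm9 are named in the submitters' processing notes, and the annotation and strand setting are not given in the sources used here. Rows that name no gene were left out: genes held 56.3% to 61.8% of uniquely aligned reads, and 32.2% to 37.4% of aligned reads had no unique place. Each sample had 26683033 to 36677987 gene reads, and intervals cover counting error only. Of 24391 genes, 24271 matched RefSeq symbols (GRCm38.p6). That build differs from mm9, so its coordinates appear only with printed sequences.

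The differences, K-Ras Mll4-/- minus K-Ras, were fitted over all genes with edgeR 4.0.16 in R 4.3.3: default count filter, TMM scaling, robust quasi-likelihood test without a block, Benjamini-Hochberg adjustment, called at an adjusted p under 0.05. The SE is the log2 fold change divided by the square root of F. CPM are TMM-normalised, and log2 CPM use a prior count of 2. Alternatives used DESeq2 1.42.0, limma 3.58.1 and mgcv 1.9.3 (GC and length offsets, available for 99.1% of tested genes). The fit was run on simulated counts with the same dispersion for all genes, which checks the code and not its error rates on these samples.

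The members and lists were chosen with earlier results of these data known. Named beside the members were Kmt2d, the 3 listed genes with the largest absolute log2 fold change in each list, Mocs1, Mocs2, Gphn, Cycs and Sqor, 10 neighbours of Suox and the 5 profiles closest to it. Marker lists covered alveolar type 2, alveolar type 1, club, ciliated, endothelial, fibroblast, immune, mesothelial, adipocyte and red blood cells. Bhmt and Msln are named for their lists' values, chosen after those were seen.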

Additional observations from a re-analysis of the deposited data

How the results depend on the processing

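Across 16 alternatives the Suox log2 fold change stayed positive. With single samples left out it ranged from 2.37 (without K-Ras Mll4-/- replicate 2) to 2.53 (without K-Ras Mll4-/- replicate 1), and the other 14 alternatives moved it by less than the replicate SD; its call was lost in 5 of the 16. Ethe1, Mpst, Cdo1 and Cbs kept their sign, with ranges of 0.43 to 0.65, 0.02 to 0.29, -1.32 to -0.43 and -1.37 to -0.89; Cbs gave no value with at least 50 reads in 2 samples. Tst, Csad and Cth changed sign in 2, 6 and 1 alternatives. The number of called genes, 6 in the main analysis, was 44 with no count filter, 1601 with DESeq2, 1503 with the edgeR likelihood ratio test and 0 with limma-voom (3228 at an unadjusted p under 0.05). It ranged from 0 to 528 with single samples left out: 528 without K-Ras replicate 1 and 0 without each of the other 3, where 3549, 1820 and 965 genes had an unadjusted p under 0.05. Of the 60 listed genes, 0 were called in the main analysis, 1 with no count filter (Slc26a2), 12 with DESeq2, 8 with the likelihood ratio test, and between 0 and 4 with single samples left out, the 4 being Cycs, Slc26a2, Sult1a1 and Slc7a11 without K-Ras replicate 1. With a sample left out, the lone sample is assumed to vary like the other group. The cause of these differences was not tested.

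The titles number the samples 1 and 2 in both groups but do not say what the numbers share, and with 2 samples a group they do not establish pairs; deviations of same-numbered samples correlated at 0.213 across genes. With the replicate block 217 genes were called, 2 of them listed (Cycs and Slc26a2), and with the block and GC and length offsets 126, 1 of them listed (Slc26a2). The Suox log2 fold change was 2.45 with the block.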

Other observations

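Of the marker lists not described above, the immune list summed to 645 and 259 CPM in K-Ras and to 541 and 307 CPM in K-Ras Mll4-/- samples, and the alveolar type 1 list to 1090 and 1459 CPM against 1264 and 1172 CPM, so both sums overlapped between the groups. Of the 6 alveolar type 1 genes, 2 were higher (Aqp5 and Rtkn2) and 2 lower (Ager and Cav1) in both K-Ras Mll4-/- samples. Of the 6 immune genes, 0 were higher and 1 (Itgam) was lower in both. Among all genes tested, 29.9% were higher and 28.5% lower in both. Among 5 red blood cell markers the sums were 7.50 to 34.3 CPM, and Hba-a1 had 0 reads in every sample.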
